A study of Mus musculus with 35 samples.

Results

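The genes described here are 10 genes of the thick ascending limb and the distal tubule, namely Umod, Slc12a1, Kcnj1, Cldn16, Cldn19, Slc12a3, Calb1, Trpm6, Klk1 and Egf. They were taken by name from the 31053 genes of the deposited count tables and joined by Ensembl identifier, and all 10 were found and had counts in each of the 35 libraries. Each library was made from the kidney of a C57BL/6 mouse at postnatal day 2, with a 3′ end kit (QuantSeq) in which a read comes from the end of a transcript. The Flcn cross compares 5 Flcn KO kidneys (Flcn flox/flox with Ksp-cre+) with 5 controls, the Flcn/Tfeb cross 4 Flcn/Tfeb DKO kidneys (both Flcn and Tfeb flox/flox, with Ksp-cre+) with 3 controls, and the Flcn/Tfe3 cross 10 Flcn/Tfe3 DKO kidneys (Flcn flox/flox and Tfe3-/-, with Ksp-cre+) with 8 controls. The study's account of these mice gives Flcn flox/flox as the genotype of its control kidneys at this age, and the labels of the Flcn cross say only control. For the controls of the DKO crosses the sources used here say control and give no alleles. The Ksp-cre transgene is driven by the promoter of Cdh16, so that the floxed genes are deleted in tubule epithelium that uses this promoter, the thick ascending limb, distal tubule and collecting duct among it, whereas Tfe3-/- is a null allele in all cells. Mice of both sexes were used. The Flcn/Tfe3 libraries came as 2 tables, called here set B (6 DKO, 3 controls) and set C (4 DKO, 5 controls), and the other 17 libraries are set A.

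The thick ascending limb takes up sodium, potassium and chloride through the cotransporter encoded by Slc12a1, returns potassium to the lumen through the channel encoded by Kcnj1, and lets calcium and magnesium pass between cells through claudins such as Cldn16 and Cldn19. Its cells also make uromodulin, the product of Umod, which is the most abundant protein of normal urine. The distal convoluted tubule follows and takes up sodium chloride through the product of Slc12a3 and magnesium through the channel encoded by Trpm6, and Calb1 encodes a calcium-binding protein of the late distal and connecting tubule. Klk1 encodes tissue kallikrein, the protease of the connecting tubule that releases kinins from kininogen, and Egf encodes the precursor of epidermal growth factor, which acts on magnesium uptake by the distal tubule. Folliculin, the product of Flcn, keeps the transcription factors encoded by Tfeb and Tfe3 out of the nucleus, and the crosses ask what follows from its loss with and without each of these factors.

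Umod and Klk1 are the members that passed the test in a cross, and they did so in opposite directions, so the 250 bases before their RefSeq start sites are given here, from RefSeq on GRCm38.p6. The Umod promoter is chr7:119479263-119479512 on the minus strand and the Klk1 promoter is chr7:44225110-44225359 on the plus strand, and both are written 5′ to 3′ in lower case, since no motif searched was found in them.
Umod: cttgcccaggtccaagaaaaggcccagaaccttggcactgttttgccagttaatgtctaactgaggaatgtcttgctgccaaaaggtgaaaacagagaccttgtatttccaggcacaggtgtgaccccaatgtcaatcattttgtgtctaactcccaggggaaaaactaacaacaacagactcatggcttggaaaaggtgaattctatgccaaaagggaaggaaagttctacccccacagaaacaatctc
Klk1: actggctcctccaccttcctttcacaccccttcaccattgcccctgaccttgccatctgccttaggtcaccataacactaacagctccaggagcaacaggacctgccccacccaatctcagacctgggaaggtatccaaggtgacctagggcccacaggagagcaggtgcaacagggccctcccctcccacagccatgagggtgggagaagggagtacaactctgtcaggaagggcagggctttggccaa
Of the members, 9 matched an entry of the promoter table, with 11 promoters between them, and Calb1 did not. The motifs searched, on both strands, were CACGTG (the E-box), the CLEAR motif of TFEB targets (an E-box with fixed flanking bases) and TCATGTG (the M-box). None of the 3 was in a member promoter, and they were in 6.02%, 0.24% and 3.25% of all 32851 promoters of this length. The absence of a match says only that these letters are not in this window. The start of Umod in RefSeq lies inside the gene as GENCODE bounds it, so the last bases of its window, from 119479263 to 119479282, fall within the gene given below. The Klk1 promoter is richer in G and C (58.8%) than that of Umod (45.2%).

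Libraries held 1652649 to 4239356 counts on genes (median 2992169), so that a count of 0, which allows up to 3 counts, would stand for at most 0.708 to 1.81 CPM (counts divided by library size), counting error only. The lowest count of a member in any library was 1 for Egf, 10 for Trpm6 and 26 for Klk1, and the highest was 3073 for Slc12a1. Reads from 3′ ends can lie outside the deleted exons, so the targeted genes check no label here, and their log2 fold changes in the 3 crosses were 0.09, 0.11 and 0.20 for Flcn, -0.16, -0.73 and 0.10 for Tfeb, -0.04, -0.14 and -0.09 for Tfe3, and 0.05, -0.40 and 0.00 for the Cre driver gene Cdh16, with none called. The share of mitochondrial counts was 4.88% and 4.93% in control replicates 4 and 5 of the Flcn cross against 9.98% to 11.1% in the other 3 controls and 7.33% to 11.1% in Flcn KO. In the Flcn/Tfeb cross it was 4.47% in control replicate 3 and 9.16% to 11.9% in the other 6 libraries. In the Flcn/Tfe3 cross it was 2.10% to 2.99% in controls and 1.79% to 3.56% in DKO libraries of set B. In set C it was 3.01% to 7.80% in controls and 2.72% to 4.27% in DKO libraries. Adrenal marker genes (Star, Cyp11b1, Cyp11a1 and Hsd3b1) summed to over 100 CPM in 6 libraries, 5 of them in the Flcn/Tfe3 cross, and to at most 3.82 CPM in the Flcn cross.

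In the Flcn cross, Umod rose to 2.00 times and Klk1 fell to 0.371 times the control level in Flcn KO kidneys, while the other 8 members did not pass the test. Of 11932 genes tested with edgeR's quasi-likelihood test, 62 were called at a Benjamini-Hochberg adjusted p under 0.05, which is 0.52%, and of the 10 members 2 were called. Umod was called higher, as 0.453% of genes were, and Klk1 lower, as 0.067% were. The median log2 fold change of the 10 members was -0.19, beside -0.01 over all genes tested. In these whole kidneys, a difference in the number of cells of a type and a difference in the RNA each cell holds cannot be told apart.

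Umod (ENSMUSG00000030963, chromosome 7 of mm10 from 119462711 to 119479282, minus strand) had 245, 257, 269, 206 and 245 CPM in the 5 controls. The 5 Flcn KO libraries had 552, 401, 527, 522 and 441 CPM. The highest control lies below the lowest knockout, so the groups do not overlap. The means were 244 ± 23.7 CPM (SD, n = 5) in controls and 489 ± 64.5 (SD, n = 5) in Flcn KO, which edgeR estimated as 1.001 ± 0.12 (standard error) on the log2 scale with an adjusted p of 3.96e-04. An exact two-sided permutation of the libraries gave p = 0.00794, the smallest that the 252 regroupings of 5 against 5 allow.

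Klk1 (ENSMUSG00000063903, chromosome 7 from 44225360 to 44229618, plus strand) had 60.8, 69.3, 24.2, 41.2 and 50.04 CPM in the controls, which are spread over a wide range, and control replicate 3 is the low one. In Flcn KO it had 23.0, 20.6, 15.6, 16.6 and 15.4 CPM. Every knockout lies below every control, although the highest knockout and the lowest control are close. The means were 49.1 ± 17.5 CPM (SD, n = 5) and 18.2 ± 3.38 (SD, n = 5), and edgeR's estimate on the log2 scale was -1.43 ± 0.23 (standard error), with an adjusted p of 0.00319. The exact permutation test gave the same smallest p of 0.00794. With each library left out in turn the log2 fold change stayed between -1.59 and -1.28, with an adjusted p of at most 0.0187. Over all genes tested 2.38% separated the groups without overlap, and among the members Umod and Klk1 did so.

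**Figure D1:**
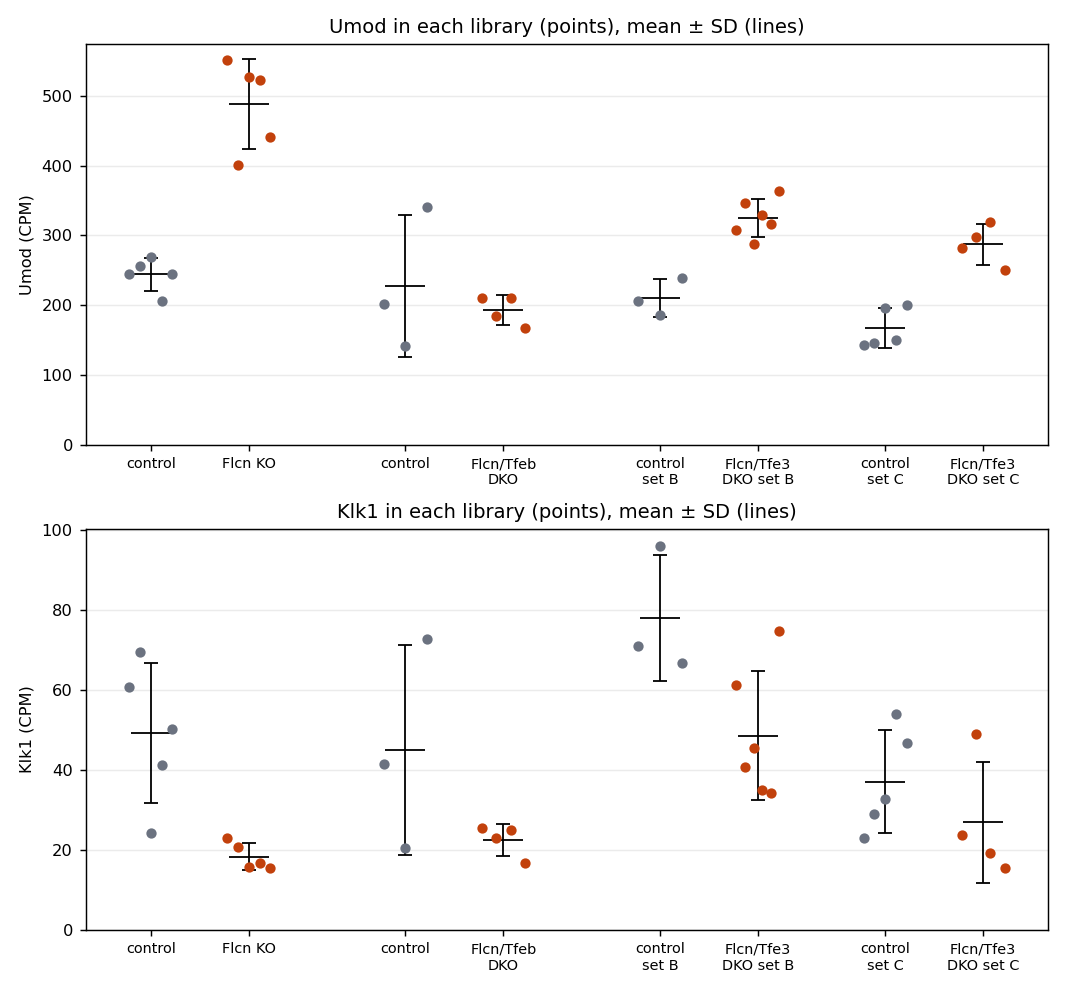
Umod (top) and Klk1 (bottom) in CPM on TMM-scaled library sizes, a point for each library, with the mean and SD of each group as a line and bar, for the Flcn cross, the Flcn/Tfeb cross and sets B and C of the Flcn/Tfe3 cross. Umod separates knockout from control in the Flcn cross and in both sets of the Flcn/Tfe3 cross but not in the Flcn/Tfeb cross, and Klk1 separates them in the Flcn cross, where knockouts sit between 15.4 and 23.0 CPM.

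The 4 other thick limb members, Slc12a1, Kcnj1, Cldn16 and Cldn19, did not pass the test in the Flcn cross. Slc12a1 (ENSMUSG00000027202, chromosome 2 from 125152505 to 125230002), whose product carries out the salt uptake of this segment, had 846, 913, 896, 583 and 660.0 CPM in controls and 972, 835, 969, 927 and 702 in Flcn KO. The groups overlap, the 2 lowest controls being those with the low mitochondrial share, and the log2 fold change of 0.18 (standard error 0.15, 95% interval from -0.12 to 0.47) did not pass the test. Without those 2 libraries, a choice made once the data had been seen, Slc12a1 stood at -0.01. Kcnj1 (ENSMUSG00000041248, chromosome 9 from 32372493 to 32399197), the potassium channel, had 35.5 to 48.5 CPM in controls and 40.6 to 50.1 in Flcn KO, with a log2 fold change of 0.14 ± 0.13 (standard error). For Cldn16 (ENSMUSG00000038148, chromosome 16 from 26463135 to 26482765) the ranges were 15.5 to 35.1 and 16.3 to 24.3 CPM. Cldn19 (ENSMUSG00000066058, chromosome 4 from 119255414 to 119262438), which pairs with Cldn16 in the tight junction, ranged from 54.5 to 75.5 and from 46.2 to 62.3 CPM. Their log2 fold changes of -0.29 and -0.21 had standard errors of 0.21 and 0.12 and adjusted p of 0.703 and 0.63 in edgeR's test. Without the 2 controls of low mitochondrial share Cldn16 stood at -0.57 (unadjusted p = 0.00879, adjusted p = 0.357 in edgeR's test). In each library, log2 CPM of Umod less the mean of these 4 genes describes the same contrast without a test, and it was 1.53 ± 0.10 (SD, n = 5) in controls and 2.57 ± 0.24 (SD, n = 5) in Flcn KO.

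Of the 5 distal members Klk1 alone passed the test in the Flcn cross, and whether its change differed from that of the other 4 was not tested. Slc12a3 (ENSMUSG00000031766, chromosome 8 from 94329201 to 94366214), the thiazide-sensitive cotransporter, had 141, 146, 134, 89.8 and 84.7 CPM in controls and 119, 104, 116, 138 and 95.3 in Flcn KO, ranges that overlap (log2 fold change -0.05, standard error 0.16). Without the 2 controls of low mitochondrial share, the 2 lowest for this gene as well, Slc12a3 stood at -0.30 (unadjusted p = 0.0212, adjusted p = 0.528 in edgeR's test). Trpm6 (ENSMUSG00000024727, chromosome 19 from 18749983 to 18892511), the magnesium channel, stayed between 6.21 and 11.1 CPM in the 10 libraries, and its log2 fold change was -0.16 (standard error 0.24). Calb1 (ENSMUSG00000028222, chromosome 4 from 15881264 to 15908064) had the lowest p of the distal members after Klk1, with 143, 167, 155, 199 and 206 CPM in controls and 91.5, 170.0, 106, 84.1 and 90.0 in Flcn KO. Of its knockouts, 4 lie below all controls and Flcn KO replicate 2 lies among them. Its log2 fold change was -0.68 ± 0.17 (standard error), with an unadjusted p of 0.00107 and an adjusted p of 0.115 in edgeR's test, and the exact permutation test gave p = 0.0317. The adjusted p was 0.0416 with DESeq2 and, in edgeR's test, 0.0347 without a filter on low counts. It was 0.0109 and 0.018 with the level of Xist or the mitochondrial share as a covariate. Calb1 was not called with RLE factors (0.114), a mean of at least 10 counts (0.127), a replicate block (0.091) or one fit of 35 libraries (0.166). It was 0.355 without the 2 controls of low mitochondrial share. With each library left out in turn the adjusted p ran from 0.0036, without Flcn KO replicate 2, to 0.334. Egf (ENSMUSG00000028017, chromosome 3 from 129677565 to 129755316) rests on 3 to 15 counts a library, with 6.75, 6.93, 6.46, 2.25 and 4.15 CPM in controls and 3.43, 0.869, 1.86, 2.55 and 4.44 in Flcn KO. The groups overlap, and the log2 fold change of -0.94 ± 0.42 (standard error) had an adjusted p of 0.518, its 95% interval (from -1.77 to -0.11) including the value of Klk1.

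**Figure D2:**
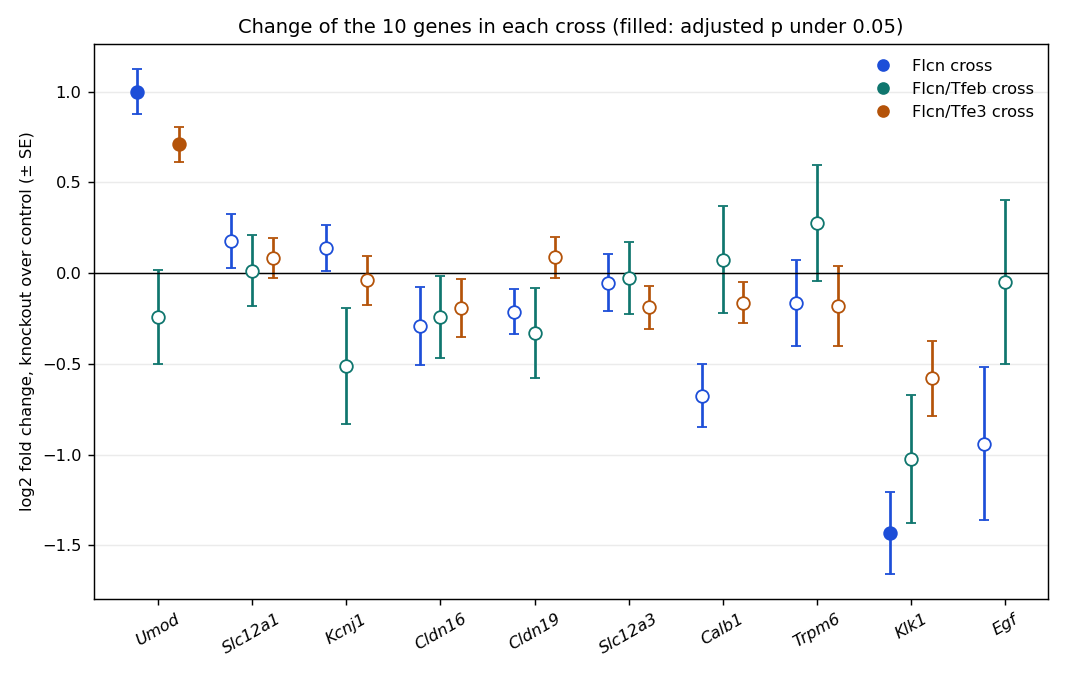
Log2 fold change of the 10 members against the controls of their own cross, with its standard error as a bar, in each of the 3 crosses, filled points being called at an adjusted p under 0.05. Called are Umod (1.001) and Klk1 (-1.43) in the Flcn cross and Umod (0.71) in the Flcn/Tfe3 cross, and Egf was not tested in the Flcn/Tfe3 cross.

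None of the members was called in the Flcn/Tfeb cross. Here the question was which changes are still seen when Tfeb is deleted together with Flcn. Of 12469 genes tested 0 were called, with edgeR or, among the members, with DESeq2, and 632 genes (5.07%) had an unadjusted p under 0.05, among them 1 member, Klk1. The median log2 fold change of the members was -0.15, beside -0.02 over all genes tested. No member separated the groups, as 5.65% of genes did.

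Umod had 202, 142 and 340.0 CPM in the 3 controls and 211, 184, 209.8 and 168 in the 4 Flcn/Tfeb DKO libraries, so the DKO values lie within the range of the controls. edgeR gave it -0.24 ± 0.26 (standard error) on the log2 scale, with a 95% interval from -0.75 to 0.26 and an adjusted p of 0.826, and an exact permutation gave p = 0.743. Control replicate 3, the library with 340.0 CPM, is the one with the low mitochondrial share, and without it the log2 fold change was 0.17. With the mitochondrial share as a covariate it was 0.47 (adjusted p = 0.591).

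Klk1 had 41.5, 20.5 and 72.7 CPM in controls and 25.3, 22.9, 24.96 and 16.7 in Flcn/Tfeb DKO. Control replicate 2 lies among the DKO libraries and the other 2 controls lie above all of them. The log2 fold change of -1.02 (standard error 0.35, 95% interval from -1.72 to -0.33) had an unadjusted p of 0.0143 and an adjusted p of 0.798 in edgeR's test. An exact permutation gave p = 0.143, where 4 against 3 cannot go below 0.0286. Without control replicate 3 the log2 fold change was -0.46, and it ran from -1.35 to -0.46 with each library left out in turn. With the mitochondrial share as a covariate and all libraries kept it was -0.03.

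Among the other members, Slc12a1 had 715, 757 and 502 CPM in controls and 681, 611, 688 and 675 in Flcn/Tfeb DKO, and control replicate 3 was the lowest. Kcnj1 had 35.9, 22.2 and 58.3 CPM against 33.6, 32.2, 27.1 and 18.2, and there the same control was the highest. Calb1 followed the same order of controls, with 132, 83.8 and 232 CPM against 199, 137, 142 and 155. Cldn19 (53.3, 59.4 and 96.5 CPM) was also highest in that control, whereas Slc12a3 (182, 183 and 113 CPM) and Cldn16 (33.1, 32.7 and 23.2 CPM) were lowest in it. Log2 fold changes of the 9 members other than Klk1 lay between -0.51 for Kcnj1 and 0.28 for Trpm6, with Calb1 at 0.07, Slc12a1 at 0.01, Slc12a3 at -0.03 and Egf at -0.05, and their adjusted p between 0.798 and 0.991. Kcnj1 was -0.78 without control replicate 2 and -0.07 without control replicate 3, and Calb1 turned from -0.20 to 0.56 between the same fits. In the fit with the mitochondrial share as a covariate, the log2 fold change of Kcnj1 was 0.29, that of Slc12a1 -0.26 and that of Calb1 0.94 (adjusted p = 0.447), none of them called.

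In the Flcn/Tfe3 cross, whose DKO libraries are labelled as knockouts of both Flcn and Tfe3, Umod was again higher and was the only member called of the 9 tested. Egf had been removed by the filter on low counts. Of 12456 genes 48 were called (0.385%), 43 of them higher (0.345%). The median log2 fold change of the members tested was -0.16, beside 0.01 over all genes.

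In set B, Umod had 206, 186 and 239 CPM in the controls and 288 to 363 CPM (median 323) in the 6 DKO libraries. In set C it had 143, 145, 196, 149.6 and 200.4 CPM in the controls and 283, 297, 319.7 and 249.7 in the DKO libraries. In each set, and over both sets pooled, every DKO library lies above every control. Over the 18 libraries the means were 183 ± 34.4 CPM (SD, n = 8) and 310.0 ± 32.9 (SD, n = 10), edgeR's estimate with the set as a term was 0.71 ± 0.10 (standard error) on the log2 scale at an adjusted p of 2.17e-04, and permutation within sets gave an exact p of 9.45e-05, the smallest of 10584 regroupings. Groups that do not overlap were found for 0.128% of genes over both sets, 2.99% in set B and 6.02% in set C, and Umod was the only member of 9 in each. By set, the log2 fold change was 0.63 in set B, where the adjusted p was 0.115 and the call was lost, and 0.75 in set C (adjusted p = 0.00875). In a fit chosen once the data had been seen, without the 5 libraries of high adrenal markers, the Umod value was 0.74 (adjusted p = 0.00568).

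Klk1 had 71.0, 95.9 and 66.8 CPM in the controls of set B and 61.1, 40.6, 45.3, 35.02, 34.2 and 74.5 in its DKO libraries, of which 5 lie below all controls and DKO replicate 6 does not. In set C the controls had 22.8, 28.8, 32.7, 53.9 and 46.6 CPM and the DKO libraries 23.8, 48.8, 19.2 and 15.4, and these overlap. The log2 fold change over both sets was -0.58 (standard error 0.21, 95% interval from -0.98 to -0.18), with an unadjusted p of 0.00962, an adjusted p of 0.427 in edgeR's test and an exact permutation p of 0.0231. Set B alone gave -0.68 and set C alone -0.51, and the value lay between -0.80 and -0.49 with each library left out in turn, at an adjusted p of 0.0799 to 0.687.

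The other members tested had log2 fold changes from -0.19 to 0.09 over both sets. Between set B alone and set C alone the sign turned for Trpm6 (-0.59 and 0.23), Kcnj1 (0.29 and -0.35), Cldn16 (0.02 and -0.44) and Cldn19 (-0.04 and 0.18), none of them called. Slc12a1, Slc12a3 and Calb1 kept their sign. Slc12a1 had 535 to 744 CPM in the 8 controls (median 588) and 479 to 854 in the 10 DKO libraries (median 664), a log2 fold change of 0.08 (95% interval from -0.13 to 0.30). Slc12a3 had 39.9 to 75.6 CPM (median 54.8) and 42.2 to 58.4 (median 45.8), and Calb1 had 111 to 198 CPM (median 145) and 93.0 to 179 (median 142). Kcnj1 differed between the sets, with controls at 23.99, 32.8 and 27.96 CPM in set B and 48.3, 61.9, 57.7, 61.2 and 71.0 in set C, a level difference between separately made tables that was not tested. Its DKO libraries had 25.6 to 45.3 CPM (median 32.6) in set B and 54.3, 49.4, 45.6 and 43.7 in set C. The effect on Kcnj1 in set C less that in set B was -0.60 (standard error 0.24, unadjusted p = 0.0199, adjusted p = 0.15 from edgeR's test). It was the only member of 9 with an unadjusted p under 0.05 there, as 22.1% of genes had, and 0 members were called, with 1.3% of genes called. Egf had 1 to 11 counts per library in this cross, at most 5.04 CPM in controls and 2.57 in DKO libraries.

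**Figure D3:**
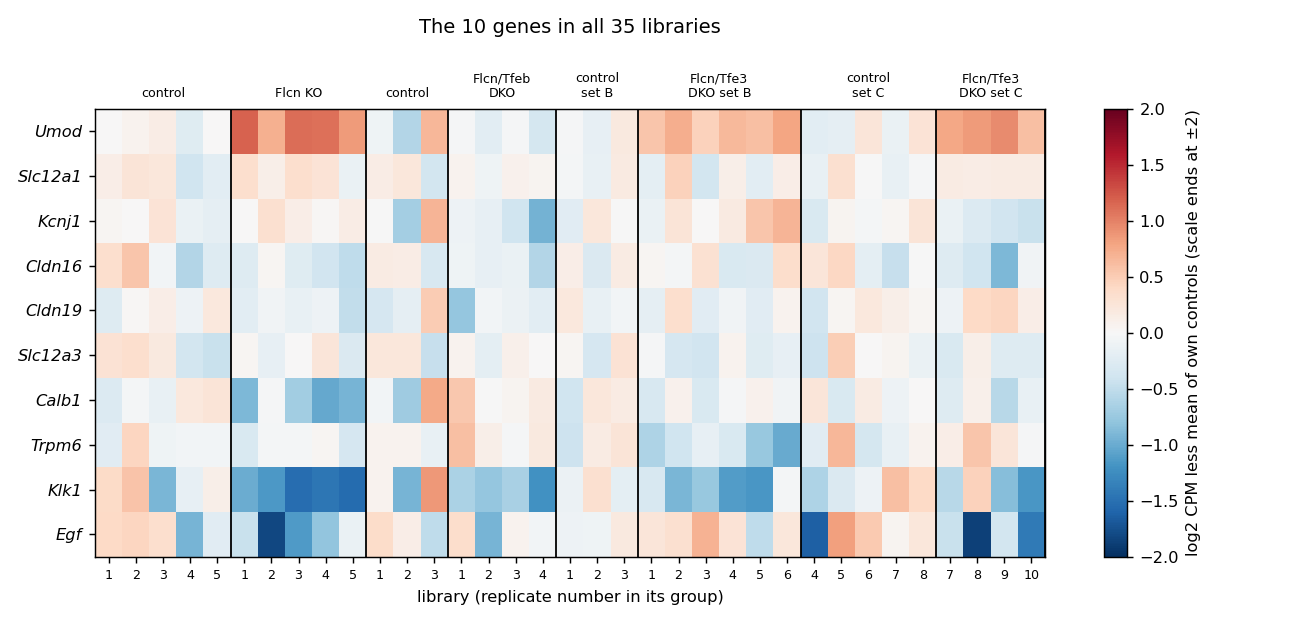
Log2 CPM of each member (rows) in each of the 35 libraries (columns), less the control mean of its own cross and set, the colour scale ending at -2 and 2. The Umod row is high in Flcn KO and in Flcn/Tfe3 DKO libraries, the Klk1 row is low in Flcn KO, and the column of Flcn/Tfeb control replicate 3 is high for Umod, Klk1, Calb1, Kcnj1 and Cldn19.

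Whether a change differed between crosses was tested directly, each effect being taken against its own controls. The Umod effect was lower in the Flcn/Tfeb cross than in the Flcn cross by a log2 difference of -1.25 (standard error 0.27, unadjusted p = 1.42e-04), but the adjusted p over 13049 genes was 0.265. The Flcn/Tfe3 effect on Umod less the Flcn/Tfeb effect was 0.93 (standard error 0.23, unadjusted p = 3.34e-04, adjusted p = 0.259), and less the Flcn effect it was -0.29 (standard error 0.15, adjusted p = 0.661). Without control replicate 2 of the Flcn/Tfeb cross, the control in which Umod is lowest, the first of these became -1.49 (adjusted p = 0.0153) and the second 1.17 (adjusted p = 0.0186), so whether edgeR called these differences rested on that library. Without control replicate 3 of that cross, in which Umod is highest, they were -0.82 and 0.53 and were not called. Over all libraries left out in turn the adjusted p ran from 0.0153 to 0.654 for the first and from 0.0186 to 1.0 for the second.

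For Klk1 the effect in the Flcn/Tfeb cross less that in the Flcn cross was 0.39 (standard error 0.43, 95% interval from -0.46 to 1.24, adjusted p = 0.92), and it was 0.06 without control replicate 2 and 0.97 without control replicate 3 of the Flcn/Tfeb cross. The Flcn/Tfe3 effect less the Flcn effect was 0.85 (standard error 0.35, unadjusted p = 0.0221, adjusted p = 0.661), and less the Flcn/Tfeb effect it was 0.43 (standard error 0.43, adjusted p = 0.694). Without control replicate 3 of the Flcn/Tfeb cross the latter was -0.12. A difference in the Klk1 effect between either DKO cross and Flcn KO was thus not shown by edgeR's test, and the intervals are wide. Calb1 had 0.75 (standard error 0.35, unadjusted p = 0.046) for the Flcn/Tfeb effect less the Flcn effect and 0.52 (standard error 0.21, unadjusted p = 0.0201) for the Flcn/Tfe3 effect less the Flcn effect. Kcnj1 had -0.66 (standard error 0.31, unadjusted p = 0.046) in the Flcn/Tfeb cross less the Flcn cross. With the same 2 controls left out in turn, replicate 2 and then replicate 3, these Flcn/Tfeb less Flcn values were 0.47 and 1.24 for Calb1 and -0.93 and -0.21 for Kcnj1, not called. With edgeR 0 of 10 members were called in any of these 3 contrasts, in which 0.0153%, 0% and 0.022% of genes were called. Members with an unadjusted p under 0.05 were 3 for Flcn/Tfeb less Flcn, 2 for Flcn/Tfe3 less Flcn and 1 for Flcn/Tfe3 less Flcn/Tfeb, where 5.95%, 7.4% and 12.2% of genes had one.

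The level of Klk1 beside the other members was also followed within each library, as log2 CPM of Klk1 less the mean log2 CPM of the other 9, Umod among them. This was -0.39 ± 0.58 (SD, n = 5) in the controls of the Flcn cross and -1.61 ± 0.23 (SD, n = 5) in Flcn KO. In the Flcn/Tfeb cross it was -0.59 ± 0.77 (SD, n = 3) and -1.32 ± 0.20 (SD, n = 4). In the Flcn/Tfe3 cross it was 0.76 ± 0.37 (SD, n = 3) and 0.01 ± 0.44 (SD, n = 6) in set B, and -0.34 ± 0.50 (SD, n = 5) and -0.79 ± 0.67 (SD, n = 4) in set C. The mean was lower in the knockouts in all 4 pairs of groups, by more than the control SD in the Flcn cross and set B and by less in the Flcn/Tfeb cross and set C. In set C, DKO replicate 8 stood at 0.16 and the other DKO libraries at -0.85, -1.13 and -1.34, so the comparison with the SD there leans on that library. Taken beside the distal genes Slc12a3, Calb1 and Trpm6 alone, Klk1 went from -0.26 ± 0.54 (SD, n = 5) to -1.29 ± 0.26 (SD, n = 5) in the Flcn cross and from -0.47 ± 0.80 (SD, n = 3) to -1.42 ± 0.29 (SD, n = 4) in the Flcn/Tfeb cross. It went from 0.87 ± 0.39 (SD, n = 3) to 0.42 ± 0.54 (SD, n = 6) in set B and from 0.02 ± 0.54 (SD, n = 5) to -0.45 ± 0.52 (SD, n = 4) in set C. On this measure the mean was again lower in the knockouts of all 4 pairs, and by more than the control SD in the Flcn/Tfeb cross too. The controls of that cross stood at -0.49, -1.26 and 0.34, the last being replicate 3, the control of low mitochondrial share. The matching value for Umod, less Slc12a1, Kcnj1, Cldn16 and Cldn19, went from 1.36 ± 0.51 (SD, n = 3) to 1.43 ± 0.13 (SD, n = 4) in the Flcn/Tfeb cross, from 1.51 ± 0.11 (SD, n = 3) to 2.09 ± 0.09 (SD, n = 6) in set B and from 1.10 ± 0.26 (SD, n = 5) to 1.98 ± 0.19 (SD, n = 4) in set C. These scores are descriptions and carry no p.

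**Figure D4:**
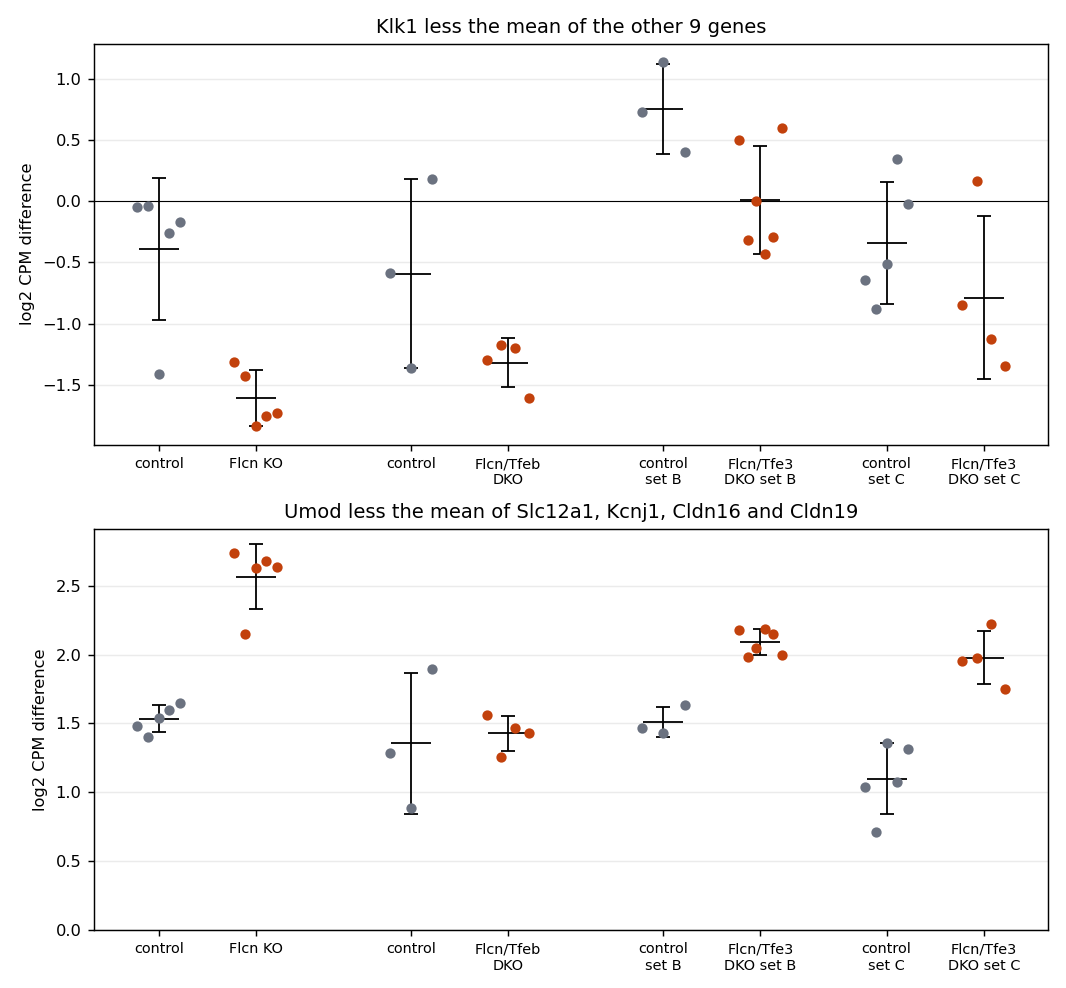
Within-library log2 differences, Klk1 less the mean of the other 9 members (top) and Umod less the mean of Slc12a1, Kcnj1, Cldn16 and Cldn19 (bottom), a point for each library with the mean and SD of each group. Klk1 has a mean of -0.39 in Flcn controls and -1.61 in Flcn KO, and Umod has means of 1.53 and 2.57 there and of 1.36 and 1.43 in the Flcn/Tfeb cross.

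In order of mean level, Klk1 stood at 18.2 CPM in Flcn KO, 22.5 in Flcn/Tfeb DKO, 26.8 in the DKO libraries of set C, 36.9 in the controls of set C, 44.9 in Flcn/Tfeb controls, 48.5 in the DKO libraries of set B, 49.1 in Flcn controls and 77.9 in the controls of set B. The libraries of neighbouring groups in this order overlap in each case, and levels from different tables are set side by side without a test. The controls of set B (77.9 ± 15.7 CPM, SD, n = 3) and of set C (36.9 ± 12.9, SD, n = 5) do not overlap for Klk1. Both are labelled control for the same cross. Klk1 is not alone in this, since these controls do not overlap for Cldn19 (67.8 to 86.9 and 34.7 to 52.6 CPM) either. For Kcnj1, which was lower in set B, they do not overlap as well. The share of all genes that separate these controls was not computed, so the separation is not read as a trait of these genes.

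Klk1 lies in a cluster of kallikrein genes on chromosome 7, whose Klk1b copies are close to it in sequence, so it was asked whether its counts could be shared with them. None of the 301 windows of 100 bases in the last 400 bases of the Klk1 transcript was identical to a stretch of another gene's transcript, and the nearest window of a Klk1b gene, in Klk1b5, had 2 mismatches (median over windows 7, highest 15). The same count of windows was 0 for each of the 10 members. Klk1 had 4364 counts over the 35 libraries and the 13 Klk1b genes had 569 together, with at most 36 in a library. Of the 25 other Klk genes 9 had more than 3 counts in any library, namely Klk7, Klk8, Klk13, Klk1b3, Klk1b5, Klk1b8, Klk1b9, Klk1b22 and Klk1b24. Klk8, a protease known from brain and skin, had 1377 counts in all, with 21.2, 18.5, 12.4, 12.97 and 14.2 CPM in the controls of the Flcn cross and 9.3, 6.95, 11.2, 15.9 and 13.6 in Flcn KO (-0.49 ± 0.24, log2 fold change with standard error, and an adjusted p of 0.561 in edgeR's test). Klk1b22 had 340 counts, 57 in those controls and 80 in Flcn KO, and was at 0 in some libraries of both groups. Klk1b5 had 17 counts in those controls and 1 in Flcn KO, and Klk1b3 had 11 and 2. In controls and DKO libraries Klk1b5 had 18 and 1 in the Flcn/Tfeb cross and 7 and 9 in the Flcn/Tfe3 cross, and Klk1b3 had 1 and 3, and 20 and 21. Whether reads of Klk1 were counted for Klk1b5 was not tested. Klk8 and Klk1b22 were not called in a cross that tested them, and no other of the 25 genes passed the filter on low counts. The counting setting for strand is not given in the sources used here. Umod overlaps an antisense gene, Gm44588, at its 3′ end, and that gene had 0 counts in the 35 libraries.

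Tissue kallikrein acts through kininogens and kinin receptors, and 4 of 7 genes of the kallikrein-kinin system passed the filter in each cross. With edgeR 0 were called, and at an unadjusted p under 0.05, which 9.07%, 5.07% and 7.15% of all genes had in these crosses in the order given here, there was 1 higher in the Flcn cross (Kng2, which encodes a kininogen, log2 fold change 0.38, standard error 0.15), 1 lower in the Flcn/Tfeb cross (Ace, which encodes the enzyme that degrades kinins, -1.002), and 1 lower and 1 higher in the Flcn/Tfe3 cross (Kng1, -1.80, standard error 0.64, and Mme, 0.33). Kng1 varied within groups, from 3.55 to 289 CPM among the 8 Flcn/Tfe3 controls.

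The other genes of the thick ascending limb were a list of 18. In the Flcn cross 13 were tested and 2 were called, both higher, as 0.453% of all genes were. Ptger3, which encodes a prostaglandin E receptor that restrains salt uptake in this segment, had 7.72, 9.71, 7.004, 7.48 and 8.29 CPM in controls and 21.5, 13.6, 17.5, 16.6 and 18.9 in Flcn KO, which edgeR gave as 1.12 ± 0.20 (standard error) on the log2 scale with an adjusted p of 0.0109. Stk39, which encodes a kinase, went from 54.8 ± 5.99 CPM (SD, n = 5) to 79.1 ± 5.01 (SD, n = 5). On the log2 scale this was 0.53 ± 0.11 (standard error), with an adjusted p of 0.0349 in edgeR's test. The median of the 13 was 0.25, beside -0.01 over all genes tested, and 10 were above 0. In the Flcn/Tfe3 cross 14 were tested and Ptger3 was called higher, as 0.345% of all genes were, at 1.09 (standard error 0.19, adjusted p = 0.00308), with a median of 0.18, beside 0.01 over all genes, and 11 above 0. For the set C effect less the set B effect 1 of the 14, not named here, was called lower with edgeR, as 1.12% of all genes were. At an unadjusted p under 0.05, which 22.1% of all genes had, there were 4 higher and 2 lower. In the Flcn/Tfeb cross, 0 of 14 were called, as 0 of all genes were, and 0 had an unadjusted p under 0.05, as 5.07% of all genes had, the median was -0.24, beside -0.02 over all genes, 2 were above 0, and the range ran from -0.65 for Nos1 to 0.63 for Tmem207. Ptger3 there had 7.85, 5.55 and 6.08 CPM in controls and 5.29, 2.48, 7.23 and 4.46 in DKO libraries, a log2 fold change of -0.37 (standard error 0.41). For the Flcn/Tfeb effect less the Flcn effect, 0 of 17 were called with edgeR and 5 were lower at an unadjusted p under 0.05, which 5.95% of all genes had in either direction.

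The list of 25 other genes of the distal convoluted and connecting tubule had no called gene in any cross with edgeR. Of 22, 21 and 21 tested, those with an unadjusted p under 0.05 were 1 higher (Wnk4) and 1 lower (Tfap2b) in the Flcn cross, 2 lower in the Flcn/Tfeb cross, and 3 higher and 2 lower in the Flcn/Tfe3 cross, where 9.07%, 5.07% and 7.15% of all genes had one. The medians were -0.05, -0.10 and 0.09. In the Flcn cross the extremes were Sall3, a transcription factor gene of the distal tubule, at -0.58 and Wnk4, the kinase gene upstream of Slc12a3, at 0.46. Those of the Flcn/Tfeb cross were Hsd11b2, which encodes the enzyme that inactivates glucocorticoids, at -0.84 and S100g, which encodes a calcium-binding protein, at 0.64, and in the Flcn/Tfe3 cross S100g at -0.67 and Emx1 at 0.55. Of Hpn, which encodes the protease that releases uromodulin, Egfr, the receptor of EGF, and Pcbd1, which encodes a pterin dehydratase, 0 were called in each cross with edgeR, and 0 had an unadjusted p under 0.05.

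**Figure D5:**
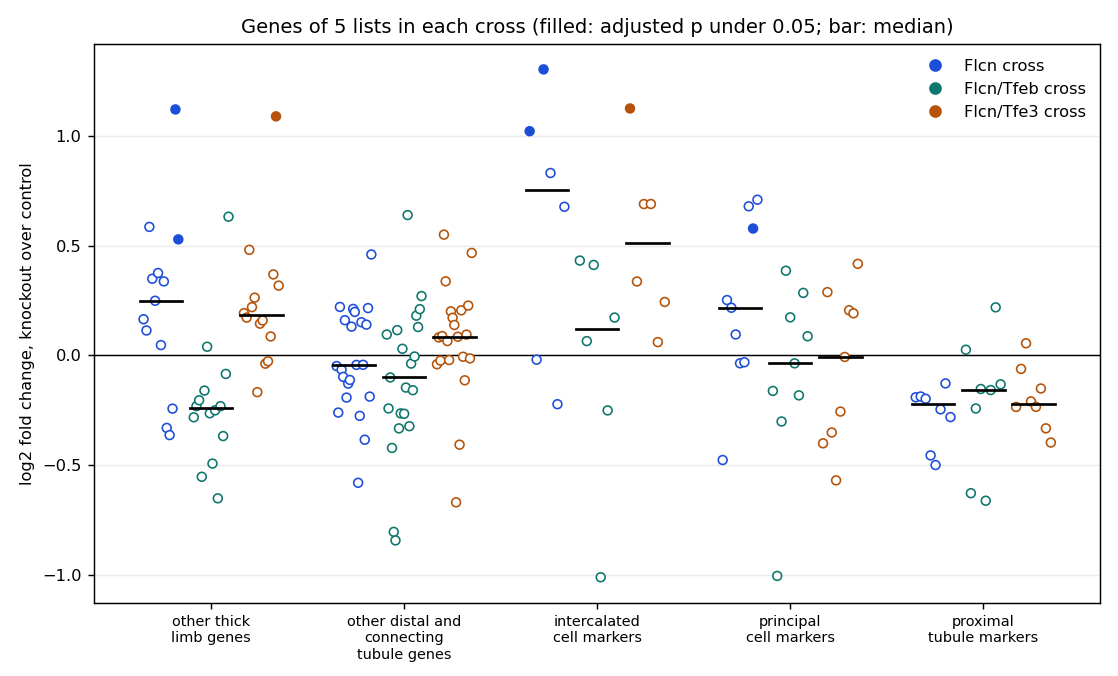
Log2 fold changes of the genes tested in the other thick limb genes, the other distal and connecting tubule genes, and the intercalated cell, principal cell and proximal tubule markers, in each cross, a point for each gene, with filled points called and a line at the median. Called are Ptger3 and Stk39 of the thick limb list, Atp6v0d2, Atp6v1g3 and Scnn1b in the Flcn cross, and Ptger3 and Atp6v0d2 in the Flcn/Tfe3 cross, all higher, and 0 genes of the distal and proximal lists.

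Markers of neighbouring cell types were read beside these results. The 6 intercalated cell markers summed to 172 to 238 CPM in the controls of the Flcn cross and 373 to 479 in Flcn KO, to 193 to 229 and 259 to 271 in the Flcn/Tfeb cross, to 181 to 222 and 310 to 448 in set B, and to 205 to 287 and 289.9 to 384 in set C. In the Flcn cross 2 of the 6 were called, Atp6v0d2 (log2 fold change 1.02) and Atp6v1g3 (1.31), which encode subunits of the proton pump. There 4 of the 6 were above 0 (median 0.76), and Slc26a4 (-0.22) and Atp6v1b1 (-0.02) were not. In the Flcn/Tfe3 cross 1 was called, Atp6v0d2 (1.13), and all 6 were above 0 (median 0.51). In these crosses 0.453% and 0.345% of all genes were called higher. At an unadjusted p under 0.05, which 9.07% and 7.15% of all genes had, 4 of the 6 were higher in each. In the Flcn/Tfeb cross 4 were above 0 (median 0.12), with 0 at such a p. Of the 9 principal cell markers 1 was called, the sodium channel subunit gene Scnn1b in the Flcn cross (0.58 ± 0.13 on the log2 scale, adjusted p = 0.0491). There 6 of the 9 were above 0 (median 0.22), and at an unadjusted p under 0.05, which 9.07% of all genes had, there were 3 higher (the sodium channel genes Scnn1a, Scnn1b and Scnn1g) and 1 lower (the water channel gene Aqp2, -0.48 ± 0.14). The 9 summed to 552 to 669.7 CPM in controls and 518 to 643 in Flcn KO. The 8 proximal tubule markers, of which 0 were called, summed to 2591 to 3464 CPM in the controls and 2316 to 2878 in Flcn KO, with all 8 log2 fold changes below 0 (median -0.22). The 5 podocyte markers summed to 380.2 to 408 CPM in those controls and 314 to 368 in Flcn KO, with all 5 log2 fold changes below 0 (median -0.08) and 1 at an unadjusted p under 0.05 (Podxl). The 5 stroma markers summed to 1467 to 1786 and 1274 to 1587 CPM, with all 5 below 0 (median -0.25) and 2 at an unadjusted p under 0.05 (Pdgfrb and Pdgfra), and 0 of either list were called. Of the 5 nephron progenitor markers, which summed to 45.3 to 50.8 CPM and 34.6 to 47.96, 4 were tested, with a median of -0.31, 2 above 0 and 2 lower at an unadjusted p under 0.05 (Six2, -0.997, and Eya1, -0.70). The 3 early nephron markers tested were all below 0 (median -0.47) with 0 at such a p, and 0 of both lists were called. In the Flcn/Tfeb cross the medians were -0.16 for proximal tubule (2 of 8 above 0), -0.33 for podocyte (1 of 5) and -0.06 for stroma markers (2 of 5). In the Flcn/Tfe3 cross they were -0.22 (1 of 8), 0.03 (4 of 5) and -0.03 (2 of 5), with 0 called in either cross. In the Flcn/Tfe3 cross all 5 red blood cell markers had an unadjusted p under 0.05, as 7.15% of all genes had, and lower values, with a median log2 fold change of -0.64 and 0 called. Their sums were 2135 to 7840 CPM in controls and 1438 to 1900 in DKO libraries of set C, but 3653 to 5975 and 3249 to 6235 in set B, and the effect in set C less that in set B had a median of -0.89 with 2 called lower (Hbb-bs and Hbb-bt), as 1.12% of all genes were. The part of these cell types in the values of Umod and Klk1 was not tested.

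The genes whose pattern over the 35 libraries was most like that of Klk1 were found from the root mean square difference of log2 CPM, each gene being centred on its control mean within cross and set, among 9800 genes. They were Hlf, a circadian transcription factor gene (0.54), Pck1, the gene of a rate-limiting enzyme of gluconeogenesis (0.57), Clu (0.59), Lipe (0.60) and Slc22a8, an organic anion transporter gene of the proximal tubule (0.61), where a gene that never left its control mean would score 0.81. Among the members Calb1 was nearest (0.66, rank 37) and Umod far (1.22, rank 9656). In the Flcn cross Pck1 (log2 fold change -0.83 ± 0.15, with an adjusted p of 0.00919 in edgeR's test) and Clu (-0.56 ± 0.12, adjusted p = 0.0315) were called lower, and Pck1 was also called lower in the Flcn/Tfe3 cross (-0.65 ± 0.14, adjusted p = 0.0295). Since likeness used these same libraries, the tests of these genes are not independent of it.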

How the data were processed

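Read trimming by the authors was with bbduk (the submitters' processing notes name Trim Galore), alignment with STAR to mm10, and gene counting with HTSeq-count, and what they deposited are raw counts. Tallies of reads on no gene (7.92% to 19.9% of reads in 26 libraries) or not aligned uniquely (33.7% to 49.4%), and a column of the percentage of multiply mapped reads, were kept out. Of the 31053 genes, 99.9% are in GENCODE M21, the source of coordinates. Each cross was fitted here in edgeR 4.0.16 (R 4.3.3) with filterByExpr, TMM factors and the two-sided quasi-likelihood test, with the set as a term in the Flcn/Tfe3 cross and interactions between crosses. P values were adjusted over all genes tested and called under 0.05, and 95% intervals come from the standard errors. CPM were computed here on TMM-scaled sizes, and log2 CPM used a prior count of 2. No library was treated as a duplicate (chi-square over degrees of freedom 2.71 to 39.1 in 63 pairs within groups). Replicates are labelled biological.

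The members and lists were chosen with earlier results of these data known. Named genes are the members, the targeted genes and Cdh16, from each list the called genes (at most 4) or the extremes, kallikrein genes with more than 3 counts in a library, and the 5 genes most like Klk1 with at least 10 CPM on average. Alternatives were RLE factors, no filter, a mean of at least 10 counts, DESeq2 1.42.0, Xist or mitochondrial share as a covariate, a replicate block, one fit of 35 libraries, each set alone and each library left out. Fits without the libraries of low mitochondrial share or high adrenal markers were added after seeing the data. Scripts were tested on simulated counts. 1 gene of a list is not reported here.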

Additional observations from a re-analysis of the deposited data

Results flagged for a closer look

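Single libraries far from the rest of their group were sought by the gap to the nearest library over the range of the group, both in log2 CPM, in 60 groups of 4 to 6 libraries (6 for each member, split by set), and chance marks about 1 in 20 groups. Slc12a1 had a ratio of 0.843 for Flcn/Tfeb DKO replicate 2, the lowest of its group at 611 CPM. Cldn16 had a ratio of 0.835 for Flcn/Tfeb DKO replicate 4, the lowest at 19.3 CPM. Slc12a3 had a ratio of 0.869 for Flcn/Tfe3 DKO replicate 8 of set C, the highest at 58.2 CPM, and Trpm6 had a ratio of 0.731 for control replicate 2 of the Flcn cross, the highest at 11.1 CPM. None of these genes was called in the cross concerned.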

How the results depend on the processing

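Umod and Klk1 were called in the Flcn cross under every alternative run there, each library left out included, with log2 fold changes of 0.93 to 1.002 for Umod and -1.51 to -1.40 for Klk1 over 9 settings, and 0.94 to 1.06 and -1.59 to -1.28 with a library left out. The number of members called there was 2 to 3, the third being Calb1. In the Flcn/Tfeb cross the Umod value turned to 0.47 with the mitochondrial share as a covariate. It lay between -0.48 and 0.17 with a library left out, the upper end without control replicate 3. The Klk1 value there was -0.03 with the same covariate and lay between -1.35 and -0.46 with a library left out. In the Flcn/Tfe3 cross 0 members were called with the replicate block or in set B alone, where Umod was 0.65 (adjusted p = 0.699 from edgeR's test) and 0.63 (adjusted p = 0.115), fewer libraries entering the latter, and the cause was not tested for the block. Umod was 0.67 to 0.76 there with a library left out. For Klk1, the Flcn/Tfe3 effect less the Flcn/Tfeb effect was -0.12 to 0.76 with a library left out and the set C effect less the set B effect was -0.27 to 0.39, the low ends without control Flcn/Tfeb replicate 3 and Flcn/Tfe3 DKO replicate 8. Replicate numbers do not pair the libraries, since the correlations of same-numbered libraries ran from -0.34 to 0.32. With the replicate block Umod was 0.99 and Klk1 -1.40 in the Flcn cross, both called, and Klk1 was -0.76 in the Flcn/Tfeb cross, not called. Depth limits Egf and Trpm6, with medians of 7 and 20 counts a library.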
